A study of Rattus norvegicus with 18 samples.

Results

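Claudins and their partner tight junction proteins were followed through colitis induced in rats by trinitrobenzene sulfonic acid (TNBS), a hapten given by enema. The set was chosen by gene symbol: 8 claudins (Cldn1, Cldn2, Cldn3, Cldn4, Cldn5, Cldn7, Cldn12 and Cldn15), occludin (Ocln) and the scaffold protein ZO-1 (Tjp1). Of these 10 genes, 9 had a probe set that carries their symbol alone, among 14217 such genes on the array, and Cldn15 was not analysed here. The 9 genes were read by 13 of the 31042 probe sets tested.

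RNA of whole, full-thickness colon was hybridised to 18 Affymetrix rat arrays, 1 array for each rat. The TNBS groups are rats sampled 2, 5, 7 or 14 days after 1 enema of 10 mg TNBS in 50% ethanol, with 3 rats for each of the 4 days, and the control group is 6 rats given saline by enema. The submitters chose the TNBS rats of each day by inflammatory markers, namely myeloperoxidase activity, loss of body weight and colon weight for its length. No group given ethanol alone was analysed here, so hapten and solvent cannot be told apart. The sources used here give neither strain, sex and age of the rats nor the sampling day of the controls. Because the tissue was taken whole, fewer cells of a type and less RNA per cell cannot be told apart in any result that follows.

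Tight junctions seal the space between neighbouring epithelial cells near their luminal edge. Claudins are the membrane proteins that build the strands of the junction: some tighten the seal, and others line pores that let ions and water through. Occludin sits in the same strands, and ZO-1 ties the strands to the actin cytoskeleton. Here the genes are ordered as barrier components (Ocln, Cldn7, Cldn3, Cldn4, Tjp1 and Cldn1), pore-forming or ion-permeable claudins (Cldn2 and Cldn12) and the endothelial claudin (Cldn5), which seals the junctions of blood vessels.

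The deposited values are log2-like signals whose medians over all probe sets lay between 5.03 and 5.07 on the 12 TNBS arrays and between 4.27 and 4.30 on the 6 control arrays. Each difference from control was therefore computed after quantile normalization, which gives all arrays 1 distribution, and is a log2 difference with its standard error (SE) from a limma fit of all 18 arrays. The words rose and fell are kept for genes with a Benjamini-Hochberg adjusted p under 0.05 over all probe sets. On the deposited scale the median probe set was higher in TNBS rats by 0.54 to 0.59, against -0.04 to -0.01 after quantile normalization and -0.22 to -0.17 after median centring, so that scale is named where it turns the direction of a gene or list described. Of all calls against control, 43.7% to 48.1% were higher after quantile normalization, 98.7% to 99.8% as deposited and 20.6% to 22.7% after median centring. Differences between 2 TNBS days used the deposited values, since no control array enters them.

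Smooth muscle and epithelial markers were among the brightest probe sets, which fits the labelled tissue: all 8 smooth muscle markers were above the 95th percentile of mean signal and all 13 epithelial markers above the 83rd. Replicate 1 of day 2 stood apart from the other arrays of its day. On the first principal component, which held 45.4% of the variance, it lay at -14.9 while the other arrays of day 2 lay at 32.1 and 37.0. It correlated at 0.987 on average with arrays of day 14, but at 0.970 with its own group. Without that array the day 2 differences from control moved by over 1.5 times for Cldn3, Cldn4, Tjp1 and Cldn5, and these are given both ways, as are the day 2 counts that it changed by that much.

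The promoters of Ocln, Cldn7 and Cldn5 are shown because occludin fell on 3 of the 4 days on both of its probe sets, Cldn7 rose on day 5 and Cldn5 is the vascular claudin that rose. Each is the 250 bases before the gene start in RefSeq on build GRCr8, with capitals marking the E-box CAGGTG or its other strand CACCTG, a motif that repressors of the Snail family are known to bind. The stretches are chr2:33441199-33441448 on the minus strand for Ocln, chr10:55188420-55188669 on the plus strand for Cldn7 and chr11:95718599-95718848 on the minus strand for Cldn5. The start listed for Ocln lies within the annotated span of the gene, whose longest form begins further upstream.
Ocln promoter: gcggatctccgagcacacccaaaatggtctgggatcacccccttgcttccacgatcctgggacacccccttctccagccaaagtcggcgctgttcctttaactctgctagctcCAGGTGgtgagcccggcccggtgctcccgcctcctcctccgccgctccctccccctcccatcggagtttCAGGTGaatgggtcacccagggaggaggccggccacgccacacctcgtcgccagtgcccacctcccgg
Cldn7 promoter: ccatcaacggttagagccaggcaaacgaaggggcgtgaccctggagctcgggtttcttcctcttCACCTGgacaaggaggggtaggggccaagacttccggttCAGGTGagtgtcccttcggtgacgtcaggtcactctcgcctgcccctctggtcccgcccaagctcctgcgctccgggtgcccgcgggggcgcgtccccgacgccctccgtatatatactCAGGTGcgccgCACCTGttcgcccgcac
Cldn5 promoter: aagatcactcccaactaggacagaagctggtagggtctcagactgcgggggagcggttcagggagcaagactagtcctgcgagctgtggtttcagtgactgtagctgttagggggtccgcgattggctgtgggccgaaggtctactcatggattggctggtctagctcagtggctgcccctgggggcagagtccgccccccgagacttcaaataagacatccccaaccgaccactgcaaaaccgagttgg
The motif stands 4 times in the Cldn7 stretch and 2 times in the Ocln stretch, and these letters are not in the Cldn5 stretch. Promoters were found for 8 of the 10 genes, and 3 of the 8 (Cldn7, Ocln and Cldn3) hold the motif on either strand, against 15.9% of 33469 rat promoters of the same length. The matches describe the sequence only.

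Occludin, the strand protein that was the first integral membrane protein found in tight junctions, fell on days 2, 5 and 7 and was not called on day 14. The brighter of its 2 probe sets read 9.82, 10.01 and 10.20 as the lowest, median and highest of the 6 control arrays, then 9.81, 9.21, 9.0 (day 2), 9.77, 8.82, 9.70 (day 5), 8.91, 9.19, 9.06 (day 7) and 9.53, 9.72, 10.06 (day 14) (log2, quantile-normalized). Every array of days 2, 5 and 7 lay below the lowest control array, narrowly for the first array of day 2, and 1 of the 3 arrays of day 14 lay within the control range.

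The Ocln difference from control on that probe set was -0.67, -0.58, -0.96 and -0.24 at days 2, 5, 7 and 14 (SE 0.20 from limma, n = 3 against 6; adjusted p = 0.0293, 0.043, 0.00232 and 0.484). On day 7 the level was 51.5% of control, and this call held in each of the 9 fits that left out 1 of the arrays compared. The calls of days 2 and 5 did not hold in all such fits. That of day 2 was lost without control replicate 4 or 5 or without day 2 replicate 2 or 3. That of day 5 was lost without control replicate 1, 3, 4 or 5 (limma adjusted p = 0.0544 to 0.0777). It was lost too without day 5 replicate 2, where the difference was -0.28 (adjusted p = 0.329), and with only the 2 groups compared (adjusted p = 0.0504). The fall of day 2 was -0.91 without day 2 replicate 1 (adjusted p = 0.00621). As deposited, the fall of day 7 was called at -0.54 (adjusted p = 0.0259), while days 2 and 5 were not called and day 14 turned to 0.20.

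The other Ocln probe set gave larger falls. It read 8.70, 8.97 and 9.11 as the lowest, median and highest control array, then 8.08, 7.74, 7.47 (day 2), 8.51, 6.89, 8.19 (day 5), 7.12, 7.45, 7.65 (day 7) and 8.16, 8.23, 8.53 (day 14). All 12 TNBS arrays lay below the lowest control array. The differences were -1.18 ± 0.26, -1.08 ± 0.26 and -1.53 ± 0.26 on days 2, 5 and 7 (adjusted p = 0.00501, 0.00589 and 0.000446), and -0.63 ± 0.26 on day 14 (adjusted p = 0.124). The signal of this probe set was thus 44.2%, 47.4% and 34.7% of control on the 3 earlier days, and each of those calls held without any 1 array. The brighter probe set, which stands for the gene, fell by less on those days (-0.67, -0.58 and -0.96). As deposited, the probe set with the larger falls was called on days 2 and 7 (adjusted p = 0.0244 and 0.00273) and not on day 5 (adjusted p = 0.0558). The pair of probe sets correlated at r = 0.957 over the 18 arrays, which include the group differences.

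**Figure D1:**
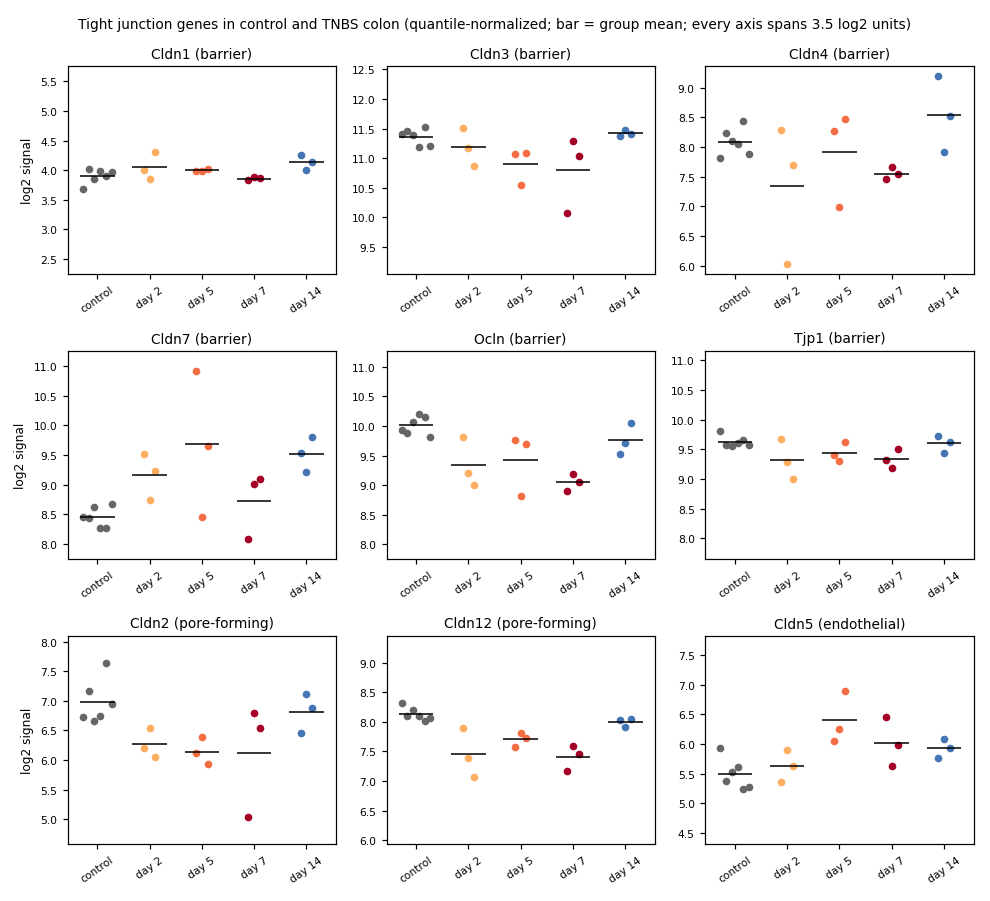
Each panel plots the quantile-normalized log2 signal of 1 gene on every array, by group (control, then TNBS days 2, 5, 7 and 14), with points for rats and a bar for the group mean. Occludin and Cldn12 sit below the control points on days 2, 5 and 7, Cldn7 sits above them on days 2 and 14, and Cldn5 on day 5.

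Cldn7 is a claudin that epithelial cells carry along their lateral membrane as well as at the junction. Its mean lay above control on each of the 4 days, and it was called on day 5 alone. It read 8.26, 8.45 and 8.67 as the lowest, median and highest control array, then 9.51, 8.75, 9.23 (day 2), 10.92, 8.46, 9.66 (day 5), 8.08, 9.0, 9.09 (day 7) and 9.54, 9.21, 9.80 (day 14). All arrays of days 2 and 14 lay above the highest control array, and days 5 and 7 each had 1 array within or below the control range. Cldn7 rose on day 5 by 1.23 ± 0.37 (2.34-fold, limma adjusted p = 0.0225). The array at 10.92 weighs on that value: without day 5 replicate 1 the difference was 0.61 (adjusted p = 0.166), and without replicate 3 it was 1.24 (adjusted p = 0.0617). After median centring it was 0.93 (adjusted p = 0.0546).

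The Cldn7 differences on the other days were 0.71 ± 0.37 on day 2 (adjusted p = 0.198), 0.27 ± 0.37 on day 7 (adjusted p = 0.627) and 1.06 ± 0.37 on day 14 (adjusted p = 0.0757), with the last 2.09-fold. Without quantile normalization days 2, 5 and 14 were called, at 1.19, 1.69 and 1.60. Both scales put Cldn7 above control on each of the 4 days. The deposited scale lifts the median probe set by 0.54 to 0.59, so its agreement in direction adds little. After median centring the day 7 mean was 8.86 against 8.85 in control. The call depends on the scale on days 2 and 14, and also on the arrays in the fit. With only the 2 groups compared, both days were called after quantile normalization, at 0.71 and 1.06 (limma adjusted p = 0.0178 and 0.00143).

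Cldn3, a sealing claudin with a bright probe set (99.1th percentile of mean signal), read 11.19, 11.40 and 11.53 as the lowest, median and highest control array, then 11.51, 11.17, 10.86 (day 2), 11.06, 10.55, 11.09 (day 5), 10.07, 11.29, 11.04 (day 7) and 11.37, 11.48, 11.40 (day 14). All arrays of day 5 and 2 arrays each of days 2 and 7 lay below the control range, and day 14 lay within it. The differences were -0.18, -0.46, -0.57 and 0.05 on days 2, 5, 7 and 14, none of them called (SE 0.21; limma adjusted p = 0.592, 0.118, 0.055 and 0.905), with a 95% interval of -1.01 to -0.12 on day 7. On the deposited scale day 2 turned to 0.13. The day 2 difference was -0.35 without day 2 replicate 1 (adjusted p = 0.319). Of the 9 fits without 1 array, 1 called day 7: without day 7 replicate 2 the difference was -0.81 (adjusted p = 0.0135). Day 7 was also called without dim probe sets, with another prior and with 1 probe set per gene (limma adjusted p = 0.0441 to 0.0486). In a fit of only the 2 groups compared, day 5 was called at -0.46 (limma adjusted p = 0.0289). Median centring, where most calls were lower, called days 2, 5 and 7 at -0.63, -0.91 and -1.03.

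Cldn4, a sealing claudin of the colon, had the largest SE of the 9 genes. It read 7.81, 8.07 and 8.44 as the lowest, median and highest control array, then 8.29, 6.03, 7.70 (day 2), 8.27, 6.99, 8.47 (day 5), 7.45, 7.66, 7.54 (day 7) and 9.20, 7.92, 8.53 (day 14). All 3 arrays of day 7 lay below the controls, while days 2, 5 and 14 overlapped them. No day was called: the differences were -0.75, -0.18, -0.53 and 0.46 (SE 0.41; limma adjusted p = 0.217, 0.794, 0.357 and 0.511), and the 95% interval of day 2 ran from -1.61 to 0.11. On the deposited scale days 5 and 7 turned to 0.40 and 0.08, and day 14 was called at 1.08 (adjusted p = 0.0199). Without day 2 replicate 1 the day 2 difference was -1.22 and was called (adjusted p = 0.0459). In a fit of only the 2 groups compared, day 7 was called at -0.53 (limma adjusted p = 0.0146).

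Tjp1, which encodes ZO-1, moved within a narrow range. The brighter of its 2 probe sets read 9.56, 9.59 and 9.81 as the lowest, median and highest control array, then 9.68, 9.28, 9.0 (day 2), 9.40, 9.29, 9.63 (day 5), 9.32, 9.18, 9.51 (day 7) and 9.73, 9.44, 9.63 (day 14). The 3 arrays of day 7 lay below all controls and each other day overlapped them. The differences were -0.31, -0.19, -0.29 and -0.03 (SE 0.13; limma adjusted p = 0.0997, 0.298, 0.0972 and 0.911), none called, and all 4 turned positive on the deposited scale (0.09, 0.21, 0.11 and 0.43), with that of day 14 called as higher (adjusted p = 0.0121). Without day 2 replicate 1 the day 2 difference was -0.49 and was called (adjusted p = 0.00891). In a fit of only the 2 groups compared, day 7 was called at -0.29 (limma adjusted p = 0.0415). The other Tjp1 probe set was dim (22.7th percentile of mean signal) and was called on no day.

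Cldn1, a sealing claudin known from skin, was dim in this tissue. The brightest of its 3 probe sets stood at the 32.9th percentile and read 3.69, 3.94 and 4.03 as the lowest, median and highest control array, against a range of 3.83 to 4.32 over the 12 TNBS arrays. The differences were 0.15, 0.09, -0.05 and 0.23 on days 2, 5, 7 and 14, none called (SE 0.10; limma adjusted p = 0.141 or more). On the deposited scale all 4 were called as higher, by 0.53 to 0.82, which turns the sign of day 7; the median probe set is shifted by 0.54 to 0.59 there. The 3 Cldn1 probe sets correlated with each other at r between 0.0071 and 0.277, and the other 2 were dimmer still, so that Cldn1 could be neither called nor shown to be unchanged.

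Among the pore-forming claudins, Cldn12, which is known for calcium passage in the intestine, had the calls that covered most days. It read 8.01, 8.10 and 8.31 as the lowest, median and highest control array, then 7.90, 7.38, 7.07 (day 2), 7.58, 7.81, 7.73 (day 5), 7.16, 7.59, 7.45 (day 7) and 8.02, 7.92, 8.05 (day 14). All 9 arrays of days 2, 5 and 7 lay below the lowest control array, and 2 of the 3 arrays of day 14 lay within the control range.

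Cldn12 fell on 3 days, with log2 differences of -0.68 ± 0.14 on day 2 (62.4% of control, limma adjusted p = 0.00344), -0.42 ± 0.14 on day 5 (adjusted p = 0.0336) and -0.73 ± 0.14 on day 7 (60.2% of control, adjusted p = 0.00116). On day 14 the difference was -0.14 ± 0.14 (adjusted p = 0.587). These calls rest on the scale: as deposited the differences were -0.08, 0.17 and -0.11 on days 2, 5 and 7, none called, and 0.52 on day 14, which was called as higher (adjusted p = 0.00443). The call of day 5 was also lost without control replicate 1 or 3 or without any 1 of the day 5 arrays.

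Between TNBS days Cldn12 was the only 1 of the 9 genes with a called difference. It read 8.37, 8.16 and 8.27 on day 14 against 7.42, 7.73 and 7.74 on day 7 (log2, as deposited), with no overlap, and the rise was 0.64 ± 0.17 (limma adjusted p = 0.0484). Leaving out any 1 of the 6 arrays lost the call, with adjusted p between 0.061 and 0.218. Without day 2 replicate 1 day 14 was also higher than day 2, by 0.86 (adjusted p = 0.0106).

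Cldn2, the channel for sodium and water that is typical of leaky epithelium, was lower than control on the earlier days. It read 6.66, 6.85 and 7.64 as the lowest, median and highest control array, then 6.20, 6.55, 6.05 (day 2), 6.11, 6.38, 5.93 (day 5), 5.04, 6.80, 6.54 (day 7) and 6.45, 7.12, 6.87 (day 14). All arrays of days 2 and 5 lay below the controls, while 1 array of day 7 and 2 of day 14 lay within their range. Cldn2 fell on day 7, with a log2 difference of -0.86 ± 0.31 (limma adjusted p = 0.0486). That call rests on the array at 5.04: without day 7 replicate 1 the difference was -0.31 (adjusted p = 0.393), and the call was lost too without control replicate 2, 4, 5 or 6. Days 2, 5 and 14 were at -0.71, -0.84 and -0.17 and were not called (adjusted p = 0.119, 0.0559 and 0.781). Day 5 was called as lower after median centring, without dim probe sets, with another prior, with 1 probe set per gene and with only the 2 groups. The limma adjusted p lay between 0.0151 and 0.0499 there, but no fit without 1 array called day 5. With only the 2 groups compared, day 7 lost its call (adjusted p = 0.101). As deposited, day 2 turned to 0.05 and day 14 to 0.66 (adjusted p = 0.054), and day 7 was at -0.08.

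Cldn5, the claudin of vascular endothelium, was highest on day 5. It read 5.24, 5.46 and 5.94 as the lowest, median and highest control array, then 5.36, 5.90, 5.62 (day 2), 6.05, 6.26, 6.90 (day 5), 6.46, 5.63, 5.98 (day 7) and 5.77, 6.08, 5.93 (day 14). All arrays of day 5, 2 of day 7 and 1 of day 14 lay above the highest control array, and day 2 lay within the control range. Cldn5 rose on day 5 by 0.90 ± 0.21 (1.87-fold, limma adjusted p = 0.00456), and the call held in all 9 fits without 1 array, with differences of 0.66 to 1.08. It was called on the deposited scale as well, at 1.73 (adjusted p = 4.23e-06). The differences were 0.13 on day 2, 0.53 on day 7 and 0.43 on day 14, none called (adjusted p = 0.718, 0.0673 and 0.197). That of day 2 was 0.26 without day 2 replicate 1 (adjusted p = 0.463). On the deposited scale days 2, 7 and 14 were called as higher too, by 0.94, 1.38 and 1.31 (adjusted p = 0.000747, 3.38e-05 and 5.67e-05). There too most probe sets were called higher, 25703, 24872 and 26909 of them on days 2, 7 and 14.

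Markers of endothelium moved beside Cldn5. Of 12 measured endothelial markers, in a list that leaves Cldn5 out, 2 rose on day 2, 11 on day 5, 11 on day 7 and 1 on day 14, and no marker fell. These are 16.7%, 91.7%, 91.7% and 8.33% of the list, against 11.4%, 14.7%, 14.7% and 6.4% of all 14217 genes called higher on days 2, 5, 7 and 14, so days 2 and 14 lie near the background. Their summed linear signal ran from 824 to 1035 in control, 1035 to 1387 on day 2, 1354 to 3320 on day 5, 1567 to 3079 on day 7 and 972 to 1032 on day 14. Plvap, a protein of the diaphragms of vessel wall openings, rose by 1.14 ± 0.18 on day 5 and by 1.06 ± 0.18 on day 7 (limma adjusted p = 0.000349 and 0.000492). Erg, an endothelial transcription factor, rose by 1.60 ± 0.22 and 1.58 ± 0.22 on the same days (adjusted p = 0.000137 and 0.000119). Set against the mean of the endothelial list and the control mean, Cldn5 stood at -0.24 ± 0.12, -0.45 ± 0.66 and -0.88 ± 0.18 on days 2, 5 and 7 and at 0.26 ± 0.17 on day 14 (SD, n = 3; control SD 0.23, n = 6). All 3 arrays of day 7, between -1.02 and -0.68, lay below the control range of -0.26 to 0.33, so on that day Cldn5 was low for the level of the other endothelial genes. The part of vessel content in the Cldn5 result was not tested.

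**Figure D2:**
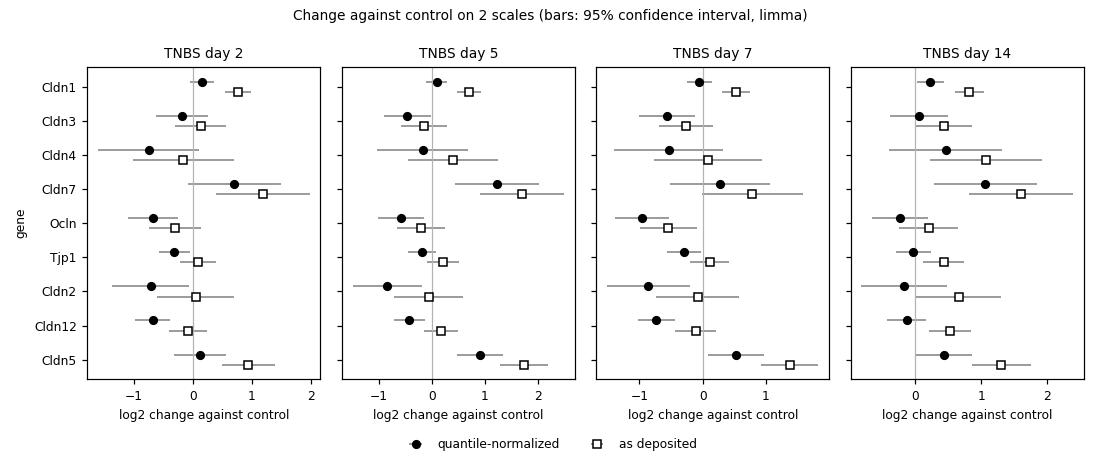
Points are the log2 differences of each gene from control on TNBS days 2, 5, 7 and 14 (n = 3 against 6), with 95% intervals, after quantile normalization and as deposited. Ocln on day 7 lies below 0 and Cldn5 and Cldn7 on day 5 above it on both scales, while Cldn12 on day 5 lies on opposite sides of 0.

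Counted over the 9 genes, day 2 had 0 higher and 2 lower calls (Ocln and Cldn12), where 9.13% of all probe sets were called higher and 9.87% lower. Without day 2 replicate 1 it had 0 higher and 4 lower calls, with Cldn4 and Tjp1 added. Day 5 had 2 higher (Cldn7 and Cldn5) and 2 lower (Ocln and Cldn12), against 12.1% and 14.5% of all probe sets. Day 7 had 0 higher and 3 lower (Ocln, Cldn2 and Cldn12), against 12.4% and 15.9%. Day 14 had no call in either direction by limma, with 2 genes at an unadjusted p under 0.05, against 5.61% and 6.09%. These shares are of probe sets. Of all 14217 genes, 11.4%, 14.7%, 14.7% and 6.4% were called higher and 10.7%, 16.5%, 18.7% and 6.37% lower on days 2, 5, 7 and 14. With 0 to 3 calls in each direction among 9 genes, the counts do not set these genes apart from the background.

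The median difference of the 9 genes was -0.31, -0.19, -0.53 and 0.05 on days 2, 5, 7 and 14, against -0.01, -0.02, -0.06 and -0.02 over all 14217 genes. The 6 barrier genes had medians of -0.25, -0.18, -0.41 and 0.14. The 2 pore-forming claudins had medians of -0.70, -0.63, -0.79 and -0.15. The medians of both roles thus lay below control on days 2, 5 and 7 after quantile normalization, while within the barrier genes Cldn7 lay above control on each day and Cldn1 on days 2, 5 and 14. As deposited these directions turn in part: the medians were 0.09, 0.21, 0.08 and 0.66 over the 9 genes and 0.11, 0.31, 0.09 and 0.63 over the barrier genes. The pore-forming medians were -0.02, 0.06, -0.10 and 0.59 on that scale.

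The F test of any TNBS day against control, by limma, called 3 of the 9 genes, Ocln (adjusted p = 0.0115), Cldn12 (adjusted p = 0.00256) and Cldn5 (adjusted p = 0.0242), against 27.8% of all probe sets. Cldn7 stood at an adjusted p of 0.0681 and Cldn2 at 0.0951. The F test among the 4 TNBS days called none of the 9, against 0.126% of all probe sets, with Cldn12 alone at an unadjusted p under 0.05 (0.0279).

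Between days 2, 5 and 7 few probe sets of any kind differed. For day 5 against day 2 and for day 7 against day 5 limma called none of the 9 genes, against 0.00966% and 0.0193% of all probe sets, with 1 and 0 genes at an unadjusted p under 0.05. For day 14 against day 7, Cldn12 was called as higher and no gene as lower, against 1.42% and 3.08%, and 5 genes had an unadjusted p under 0.05. For day 14 against day 2 no gene was called, against 0.0193%, with 2 genes at an unadjusted p under 0.05. The median of the 9 genes for day 14 against day 7 was 0.70, against 0.06 over all genes. Ocln was higher on day 14 than on day 7 by 0.74 ± 0.24 and Cldn3 by 0.70 ± 0.23, neither of them called (adjusted p = 0.0992 and 0.105), and Cldn5 differed by -0.07 ± 0.25 (adjusted p = 0.928).

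Epithelial markers fell most often on day 7 after quantile normalization. Of 13 epithelial markers 2 fell on day 2, 1 on day 5, 6 on day 7 and 0 on day 14, and none rose. These are 15.4%, 7.69%, 46.2% and 0% of the list, against 10.7%, 16.5%, 18.7% and 6.37% of all genes called lower, so day 5 lay below the background and day 2 near it. Without day 2 replicate 1, 5 of the 13 fell on day 2, against 12.6% of all genes. On the deposited scale 3 fell on day 7, and the list median of days 2 and 5 turned to 0.08 and 0.15. Their summed linear signal ran from 43390 to 51312 in control, 35497 to 49723 on day 2, 35777 to 50161 on day 5, 28468 to 40277 on day 7 and 49015 to 54462 on day 14. St14, an epithelial surface protease, fell, with a log2 difference of -0.99 ± 0.18 on day 7 (limma adjusted p = 0.000765). Krt20, a keratin of mature surface cells, fell, with a log2 difference of -0.98 ± 0.25 that day (adjusted p = 0.00838). Of 10 leukocyte markers 7, 8, 9 and 2 rose on days 2, 5, 7 and 14. These are 70%, 80%, 90% and 20% of the list, against 11.4%, 14.7%, 14.7% and 6.4% of all genes called higher. The summed leukocyte signal ran from 606 to 2283 in control, 1063 to 8032 on day 2, 3007 to 7411 on day 5, 5296 to 7777 on day 7 and 1221 to 4401 on day 14. Of 8 smooth muscle markers 4, 4, 2 and 2 fell on days 2, 5, 7 and 14. These are 50%, 50%, 25% and 25% of the list, against 10.7%, 16.5%, 18.7% and 6.37% of all genes. As deposited, the smooth muscle median of day 7 turned from -0.18 to 0.13, with 2 markers higher and 1 lower. The summed signal of this list ran from 26361 to 34114 in control, 17564 to 32683 on day 2, 14557 to 21693 on day 5, 20510 to 31467 on day 7 and 17463 to 26421 on day 14. Of 5 mesothelial markers 3 rose on day 5 and 3 on day 7, which is 60% on each day against 14.7% of all genes. Of 7 colonocyte markers 1 (2 without day 2 replicate 1), 3, 2 and 0 fell on days 2, 5, 7 and 14, and 1 rose on day 5. The falls are 14.3%, 42.9%, 28.6% and 0% of the list, against 10.7%, 16.5%, 18.7% and 6.37% of all genes. The summed colonocyte signal ran from 16860 to 26390 in control, 8930 to 20057 on day 2, 6158 to 18226 on day 5, 6087 to 20113 on day 7 and 21666 to 23663 on day 14. The part of tissue composition in the junction gene results was not tested.

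To set the junction genes beside the epithelium they belong to, the mean of the 13 epithelial markers was subtracted on each array and the control mean set to 0. Cldn7 then stood above all controls on all 12 TNBS arrays, at 0.63 to 2.47 against -0.23 to 0.19 in control, with means of 1.01 ± 0.19, 1.44 ± 0.94, 0.78 ± 0.15 and 0.92 ± 0.24 on days 2, 5, 7 and 14 (SD, n = 3). The same held as deposited, at 0.78 to 2.57 against -0.28 to 0.21. Ocln stood at -0.66 to -0.09 against -0.22 to 0.20, with means of -0.37 ± 0.18, -0.37 ± 0.17, -0.45 ± 0.31 and -0.38 ± 0.18. Its lower level against the epithelial list was therefore of like size on day 14 and on the earlier days, and on the deposited scale it ran from -0.62 to -0.06.

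Cldn12 stood at means of -0.38, -0.21, -0.22 and -0.28 against the epithelial list, and at -0.16, 0.05, 0.04 and 0.00 on the deposited scale. Cldn3 stood at 0.11, -0.25, -0.06 and -0.09 after quantile normalization. These relative levels describe the arrays and were not tested.

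**Figure D3:**
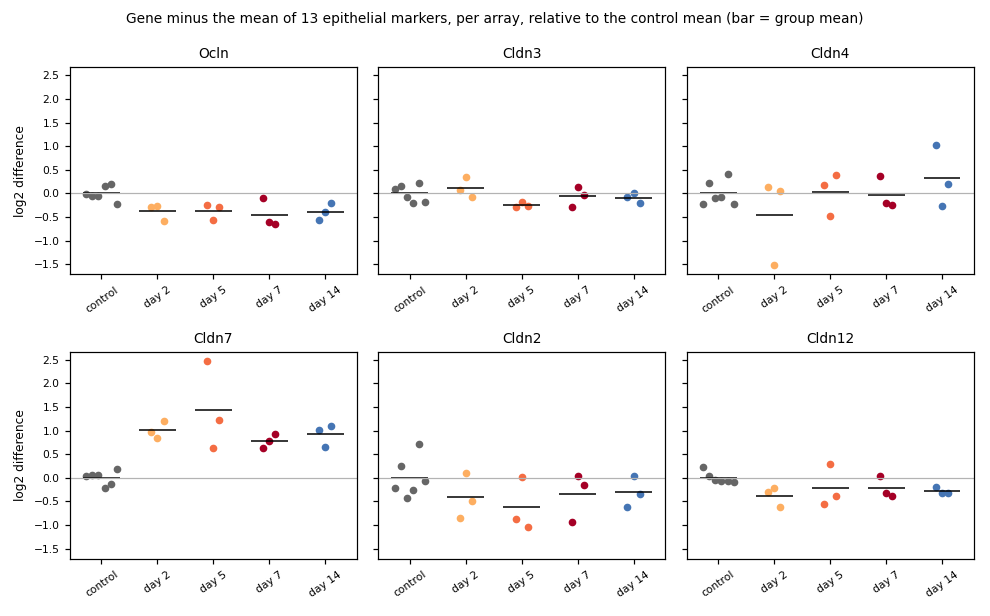
The log2 level of 6 epithelial junction genes minus the mean of 13 epithelial markers is plotted for each array, after quantile normalization and with bars for group means, with the control mean set to 0, by group (control, then TNBS days 2, 5, 7 and 14). Cldn7 lies between 0.63 and 2.47 on the 12 TNBS arrays, above the control range of -0.23 to 0.19.

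Other parts of the junction machinery were counted in lists. Of 20 measured tight junction partners outside the set, 1 rose and 5 fell on day 2, 1 rose and 4 fell on day 5, 0 rose and 6 fell on day 7, and 2 rose and 0 fell on day 14, with medians of -0.28, -0.30, -0.48 and -0.08. The falls are 25%, 20%, 30% and 0% of the list, against 10.7%, 16.5%, 18.7% and 6.37% of all genes. As deposited the medians turned to 0.28, 0.24, 0.04 and 0.65, with 1, 2, 1 and 0 genes lower. Cxadr, an adhesion receptor of epithelial junctions, fell, with log2 differences of -1.46 ± 0.31, -1.55 ± 0.31 and -1.40 ± 0.31 on days 2, 5 and 7 (limma adjusted p = 0.00451, 0.00198 and 0.00346), and these calls held on the deposited scale. The Cxadr probe set was dim, at the 32.7th percentile of mean signal, with a control mean of 4.92 after quantile normalization. The size of its fall is therefore uncertain. Pals1, a polarity scaffold that binds the junction complex, fell, with log2 differences of -0.91 ± 0.23, -0.74 ± 0.23 and -1.13 ± 0.23 on the same days (adjusted p = 0.0121, 0.025 and 0.0018), and none of these was called as deposited. Ybx3, a partner of ZO-1 that represses transcription, rose by 0.35 ± 0.08 on day 2 and by 0.27 ± 0.08 on day 14 (adjusted p = 0.00622 and 0.0317).

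Of 9 other measured claudins, 0 rose on any day, and 0, 1, 0 and 2 fell on days 2, 5, 7 and 14, with medians of -0.04, -0.16, -0.20 and -0.09 (0.54, 0.43, 0.43 and 0.47 as deposited, where 8, 8, 8 and 7 were called higher). As shares of the list, the falls are 0%, 11.1%, 0% and 22.2%, against 10.7%, 16.5%, 18.7% and 6.37% of all genes. Of all genes 11.4%, 14.7%, 14.7% and 6.4% were called higher. Most of the 31042 probe sets were called higher as deposited, 25703, 25104, 24872 and 26909 on days 2, 5, 7 and 14. On day 2, 1 fell without day 2 replicate 1. The falls were Cldn11, known from myelin, on day 5 and Cldn11 and Cldn19 on day 14, and both genes were higher than control on the deposited scale. Both were dim, at the 9.54th and 37.6th percentile of mean signal. Cldn8, a sealing claudin of the colon at the 94.6th percentile, differed from control by -0.30, -0.61, -0.53 and 0.05 (SE 0.27; limma adjusted p = 0.485, 0.108, 0.159 and 0.94), and turned to 0.13 on day 2 as deposited. It was singled out after its values were seen, as the bright gene of the list.

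Adherens junctions and desmosomes lie just below the tight junction. Of their 16 measured genes, 1 rose and 6 fell on day 2, 2 rose and 5 fell on day 5, 1 rose and 8 fell on day 7, and 1 rose and 2 fell on day 14, with medians of -0.33, -0.27, -0.48 and -0.06. The falls are 37.5%, 31.2%, 50% and 12.5% of the list and the rises 6.25%, 12.5%, 6.25% and 6.25%, against 10.7%, 16.5%, 18.7% and 6.37% lower and 11.4%, 14.7%, 14.7% and 6.4% higher over all genes. As deposited the medians were 0.11, 0.15, -0.13 and 0.41, with 0, 1, 1 and 0 genes lower. Evpl, which encodes the desmosomal plaque protein envoplakin, fell, with log2 differences of -0.86 ± 0.14, -0.63 ± 0.14, -1.34 ± 0.14 and -0.63 ± 0.14 on days 2, 5, 7 and 14 (limma adjusted p = 0.000883, 0.00479, 1.22e-05 and 0.00954), although its deposited values of days 5 and 14 were higher than control by 0.13 and 0.18. Pkp3, another desmosomal plaque gene, fell, with a log2 difference of -0.89 ± 0.17 on day 7 (adjusted p = 0.000962), which was not called as deposited (-0.31, adjusted p = 0.126), and its differences of days 2 and 14, -0.51 and -0.56, turned to 0.02 and 0.08 there. Nectin2, an adhesion receptor also carried by leukocytes and vessels, rose by 0.73 ± 0.17, 1.02 ± 0.17, 0.65 ± 0.17 and 0.88 ± 0.17 (adjusted p = 0.00794, 0.000555, 0.00989 and 0.00347), and on both scales. Most probe sets were called higher on the deposited scale, so its rise there adds little.

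Cytokines known to act on epithelial junctions rose in part of the list up to day 7. Of 9 measured, 2 rose on day 2, 5 on day 5, 6 on day 7 and 0 on day 14, and none fell, with medians of 0.77, 1.40, 1.72 and 0.22. These are 22.2%, 55.6%, 66.7% and 0% of the list, against 11.4%, 14.7%, 14.7% and 6.4% of all genes. On day 2, 3 rose without day 2 replicate 1. Il1b rose by 3.52 ± 0.43, 5.89 ± 0.43 and 6.62 ± 0.43 on days 2, 5 and 7 (limma adjusted p = 7.64e-05, 7.23e-07 and 3.04e-07). Osm, a cytokine of the interleukin 6 family, rose by 3.13 ± 0.58 and 4.04 ± 0.58 on days 5 and 7 (adjusted p = 0.00107 and 0.000133). Tnf, known to loosen tight junctions in cultured epithelium, rose by 1.67 ± 0.36 and 2.43 ± 0.36 on those days (adjusted p = 0.00302 and 0.000167). On day 14 Il1b, Osm and Tnf were at 1.13, 1.20 and 0.60 and were not called.

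**Figure D4:**
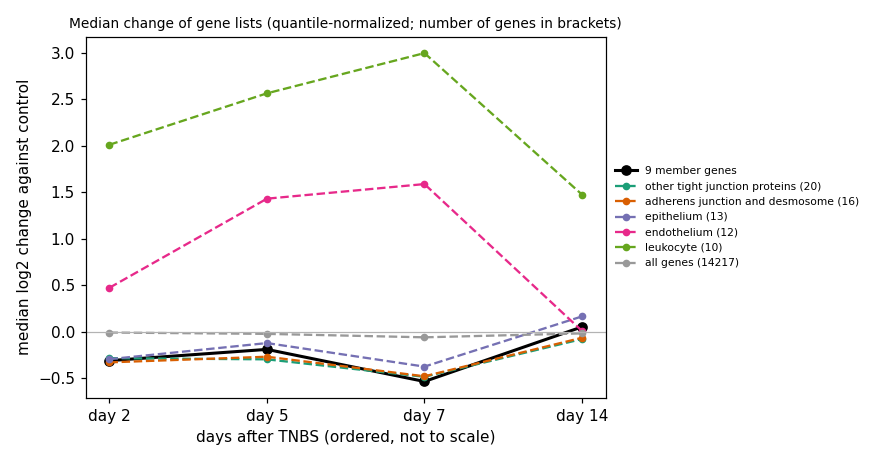
Lines join the median log2 difference from control, after quantile normalization, of the 9 junction genes and of 5 gene lists and all genes on TNBS days 2, 5, 7 and 14, which are spaced evenly and not to scale. The tight junction, adherens junction and epithelial medians lie below 0 on days 2, 5 and 7 on this scale, the leukocyte medians lie at 2.01, 2.57, 3.00 and 1.48, and the endothelial medians at 0.47, 1.43, 1.59 and 0.01.

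Over the 12 TNBS arrays on the deposited scale, the junction genes varied together to different degrees, which is given as a description since the arrays share their days and tissue make-up. Tjp1 and Cldn12 correlated at r = 0.834, Cldn3 and Cldn2 at 0.778, Cldn3 and Ocln at 0.771, and Cldn7 and Ocln at 0.768. Cldn5 correlated with the other 8 genes at r between -0.43 and 0.17.

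Among 13983 genes searched over those 12 arrays, the patterns most like Ocln were those of Arhgef28 (r = 0.968), Wasl (0.965) and Cask (0.963). Those most like Cldn7 were Nat1 (0.891), Atp8b1 (0.890) and the keratin Krt19 (0.885). Cldn12 was most like Crybg2 (0.938), Nudt12 (0.924) and Espn (0.919). The patterns most like Cldn3 were Fuom (0.972), Cluh (0.970) and Ngef (0.964), and those most like Cldn4 were Ermard (0.952), Tmem170a (0.948) and Fbxo46 (0.944). Cldn2 was most like Ap3m1 (0.920), Bcl2l15 (0.896) and Mrps16 (0.893), and Tjp1 was most like Vcpip1 (0.967), Map4k5 (0.952) and Itfg1 (0.951). Cldn5 was most like the thrombin receptor gene F2r (0.886), Fam110a (0.884) and Enpep (0.875). The likeness is that of the TNBS arrays alone: over all 18 quantile-normalized arrays r was -0.134 for Tjp1 with Vcpip1, 0.222 for Cldn2 with Ap3m1, 0.292 for Cldn7 with Krt19, 0.304 for Cldn7 with Nat1 and 0.342 for Ocln with Cask, and 0.949 and 0.965 for Ocln with Arhgef28 and Wasl. For the dim Cldn1 the 3 genes were Rfx4 (0.943), Jsrp1 (0.929) and Tpsab1 (0.890). Each r over the 12 arrays is among the highest of 13983 searched, so it is high by selection, and none was tested.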

How the data were processed

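Per the labels' design text, RNA of homogenized colon was hybridised to Affymetrix rat genome arrays and the authors normalized them with affyPLM. The sources used here do not give the version, log base or centring. From their range, the deposited signals were taken as log2 values. The extraction entry of each sample names Trizol for the TNBS rats and, for the controls, a manual alone, while the design text gives Trizol for all, so whether extraction differed between the groups is not settled. Nothing says whether arrays of 1 group came from separate experiments, and p-values measure the spread between these arrays.

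The deposited table holds 31099 probe sets, of which 57 array controls were left out. Of the 31042 tested, 20826 carry 1 gene symbol, 436 several and 9780 none listed, and 20758 of the first have an Entrez ID found in the RefSeq table. No raw array files were used, so detection calls and background could not be checked, and 0 columns of other samples were present. Where a gene had several single-symbol probe sets, the brightest by mean stands for it.

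limma 3.58.1 in R 4.3.3 fitted 1 coefficient per group to all 18 arrays, with two-sided tests and Benjamini-Hochberg adjustment over 31042 probe sets. Quantile normalization removes a change shared by most genes. The fit was tested on simulated data. The members, the roles, the 13 lists and the rules were chosen with earlier results of these data known. Named are all members, up to 3 genes of a list, ranked by the adjusted p of the F test against control, and the 3 genes most like each member, and from the lists only some of these are described. Alternatives were the deposited scale, median centring, leaving out dim probe sets, another prior, only the groups compared, 1 probe set per gene, replicate number as a block, and leaving out each array; day 2 list counts without replicate 1 were added after seeing the data.

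Deviations of same-numbered arrays from their group means correlated at -0.31 to 0.47 over 24 pairs. Only for day 14 against control were all pairs above 0.1 (0.25, 0.34 and 0.30), with nothing in the labels that ties the numbers, and the block changed no call there. No pair of arrays was a duplicate, the highest correlation being 0.992.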

Additional observations from a re-analysis of the deposited data

Results flagged for a closer look

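Cldn12, the pore-forming claudin, differed between TNBS days: it was higher on day 14 than on day 7 by 0.64 on the log2 scale (deposited values, limma adjusted p = 0.0484), with 3 of 3 day 14 arrays above all 3 day 7 arrays. It is listed because the effect against the same controls differed between time points in a direct test. The call was lost in each of the 6 fits that left out 1 of these arrays, and the F test among the 4 TNBS days did not call Cldn12 (adjusted p = 0.329).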

How the results depend on the processing

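With the deposited values, the counts of junction genes became 3 higher and 0 lower on day 2, 0 lower on day 5, 2 higher and 1 lower on day 7 and 6 higher on day 14. Most of the 31042 probe sets were called higher on that scale, 25703, 25104, 24872 and 26909 on days 2, 5, 7 and 14. The higher counts of junction genes are therefore not above the background on the deposited scale. Directions that turned there were, on day 2, Cldn3 (0.13), Tjp1 (0.086) and Cldn2 (0.051). On day 5 they were Cldn4 (0.40), Tjp1 (0.21) and Cldn12 (0.17), on day 7 Cldn1 (0.53), Cldn4 (0.080) and Tjp1 (0.11), and on day 14 Ocln (0.20), Tjp1 (0.43), Cldn2 (0.66) and Cldn12 (0.52). Of these only Cldn12 on day 5 had been called. Median centring gave 4 lower on day 2, 1 higher and 5 lower on days 5 and 7 each, and 5 genes in the F test against control, and turned Cldn1 on day 5 (-0.065) and Cldn3 on day 14 (-0.31). A fit of only the 2 groups compared gave 1 higher on days 2 and 14, and the trended, robust prior left 0 for day 14 against day 7. With the replicate block, 1 gene was lower on day 2, 0 were higher and 0 lower on day 5 (Cldn5 at 0.78, adjusted p = 0.0632, and Cldn7 at 1.17, adjusted p = 0.0985), 0 were higher on day 14 than on day 7, and Cldn3 on day 14 turned (-0.0025). The replicate numbers are not tied to a litter or day in the labels, and the block moved no other count by over 1.5 times. Leaving out 1 array at a time gave 0 higher and 1 to 4 lower on day 2, 1 to 2 higher and 0 to 2 lower on day 5, 0 to 1 higher and 2 to 4 lower on day 7, 0 calls on day 14, 0 to 1 higher for day 14 against day 7 and against day 2, and 4 genes in the F test without day 2 replicate 1. Without 1 array, directions turned only in uncalled results: against control, Cldn5 on day 2 (-0.0080 to 0.26), Cldn4 on day 5 (-0.45 to 0.28), and Tjp1 (-0.097 to 0.051) and Cldn2 (-0.32 to 0.014) on day 14; for day 5 against day 2, Ocln (-0.095 to 0.43, and -0.21 to 0.62 on its other probe set), Cldn1 (-0.17 to 0.071), Cldn4 (-0.070 to 1.05), Cldn7 (-0.13 to 1.14), Tjp1 (-0.055 to 0.33) and Cldn2 (-0.23 to 0.020); for day 7 against day 5, Cldn3 (-0.31 to 0.22) and Cldn2 (-0.32 to 0.52); Cldn5 for day 14 against day 7 (-0.29 to 0.15); and Cldn1 for day 14 against day 2 (-0.049 to 0.19). Over single called results, 69 kept direction and call under the other settings, 18 lost the call and 1 turned; of the same results without 1 array, 87 kept and 27 lost the call. The cause of these shifts was not tested. The table gives no signal over background, so dim probe sets such as those of Cldn1 limit what can be said.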
